A study of Zea mays with 18 samples.

Results

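The microRNA families miR393 and miR394 of maize were described across the growth zones of leaf 4 under control and chilled nights. Members were chosen by name alone, as every row of the deposited table whose name starts with miR393 or miR394, whichever arm of the precursor it comes from. The rule found 9 of 228 rows, 5 of miR393 (zma-miR393a-3p, zma-miR393c-3p, zma-miR393a-5p, zma-miR393b-5p and zma-miR393c-5p) and 4 of miR394 (zma-miR394a-5p, zma-miR394b-5p, zma-miR394a-3p and zma-miR394b-3p). Rows with identical values were counted once, which left 6 of 147 distinct profiles: miR393a-3p, miR393c-3p, miR393a/c-5p, miR393b-5p, miR394a/b-3p and miR394a/b-5p. The names give 5 precursor genes, and all 5 have an entry in the RefSeq annotation of maize B73.

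Both families act on F-box proteins, the parts of ubiquitin ligases that pick out the protein to be degraded. The 5p arm of miR393 guides the cleavage of transcripts of the TIR1/AFB family, F-box proteins that are the receptors of the growth hormone auxin and start the degradation of Aux/IAA repressors. The 5p arm of miR394 guides the repression of LCR, an F-box gene known from Arabidopsis, where miR394 is made in the surface layer of the shoot tip and helps to keep the stem cells beneath it. In both families the 3p arm is the opposite strand of the precursor duplex, and it is usually counted as the passenger strand. Arabidopsis seedlings are known to raise miR393 in the cold. The transcripts of these F-box genes were not measured here.

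All seedlings were of the maize hybrid ADA313, and total RNA of leaf 4 was labelled with biotin for arrays. In the control groups the seedlings had days of 16 h at 25 °C and nights of 8 h at 20 °C, with a relative humidity of 70% and a light intensity of 15000 lux. The chilled groups differed from them in the night temperature alone, which was 4 °C. Meristem, elongation zone and mature zone were taken from each, with 3 arrays in each of the 6 groups, called biological replicates in the labels. The sources used here do not say whether a replicate pooled several seedlings, nor how long the chilling lasted. The table gives 1 bi-weight average of the log2 signal per group, so a value means a group of 3 arrays, and no single array can be shown.

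Each difference below is between such averages on the log2 scale. Its standard error (SE) comes from the spread within groups, recovered from the authors' ANOVA p-value, and its p from a two-sided moderated limma contrast adjusted over all 228 rows. A difference passed when the adjusted p was under 0.05. The table holds only rows with a raw ANOVA p-value up to 0.040982, so each member in it was selected for differing among the 6 groups. In the authors' deposited table the members' raw ANOVA p-values lay between 1.7e-08 for miR394a/b-3p and 0.033412 for miR393b-5p. The authors' FDR p-value of that ANOVA was over 0.05 for miR393b-5p (0.064328), and it was 0.043209 for miR393a/c-5p. As a working limit, an average under 2 on the log2 scale was taken as near background. Under that limit lay 48 to 91 of the 147 profiles in a group. As a description of the zones, the miR396c/d profile, of a family that represses growth-regulating factors and is known to be low in dividing maize leaf tissue, stood at 3.70 and 6.70 in the control and chilled meristem and at 11.26 to 11.80 in the other 4 groups. The family did not share 1 course. From control meristem to mature zone, miR396a/b-3p (2.15 to 4.88), a/b-5p (1.36 to 2.05), e/f-5p (0.90 to 1.41) and g-5p/h (1.15 to 1.45) were higher. Of these, e/f-5p and g-5p/h were near background in both zones, and a/b-5p was so in the meristem. Over the same zones miR396e-3p (10.84 to 9.79) and miR396g-3p (2.61 to 1.06) were lower.

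miR394 had signal in the growing zones and was near background in the mature zone, under both night temperatures. The guide arm, with the same values in the rows zma-miR394a-5p and zma-miR394b-5p, had in control leaves an average log2 signal of 5.78 (meristem), 5.87 (elongation zone) and 1.44 (mature zone). With chilled nights this profile, miR394a/b-5p, had 5.73, 5.52 and 1.27. The 4 averages of dividing and expanding tissue thus lay within 0.35 of each other, and both mature averages fell under the limit of 2. From elongation to mature zone miR394a/b-5p fell by 4.43 in control leaves (SE 0.956, adjusted p = 0.00262), and fell by 4.25 in chilled leaves (SE 0.956, adjusted p = 0.00206). Against the meristem it fell by 4.34 in control leaves (adjusted p = 0.00162) and fell by 4.46 in chilled leaves (adjusted p = 0.000989).

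The opposite strand, read by the identical rows zma-miR394a-3p and zma-miR394b-3p, followed the same course. It had 3.88, 3.34 and 1.18 in the control meristem, elongation zone and mature zone, and 4.25, 3.94 and 0.95 in the chilled zones. Between the elongation and mature zones miR394a/b-3p fell by 2.16 in control leaves (SE 0.246, adjusted p = 1.08e-05) and fell by 2.99 in chilled leaves (SE 0.246, adjusted p = 1.91e-07). Against the meristem it fell by 2.70 in control leaves (adjusted p = 4.35e-07) and fell by 3.30 in chilled leaves (adjusted p = 4.44e-08). Since its mature averages are near background, each fall was also computed with averages under 2 set to 2. The 3p arm then fell by 1.34 in control and fell by 1.94 in chilled leaves between these zones, and the 5p arm fell by 3.87 and fell by 3.52, all past the threshold. Counted to this limit, the average signal of miR394a/b-5p was 14.6-fold lower in the mature than in the elongation zone of control leaves. In chilled leaves it was 11.5-fold lower. These folds are minimums with regard to the limit of 2 only, and they leave out the spread between arrays. Without the limit, the 95% interval of this 5p difference ran from -6.48 to -2.38 in control leaves and from -6.3 to -2.2 in chilled leaves.

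**Figure D1:**
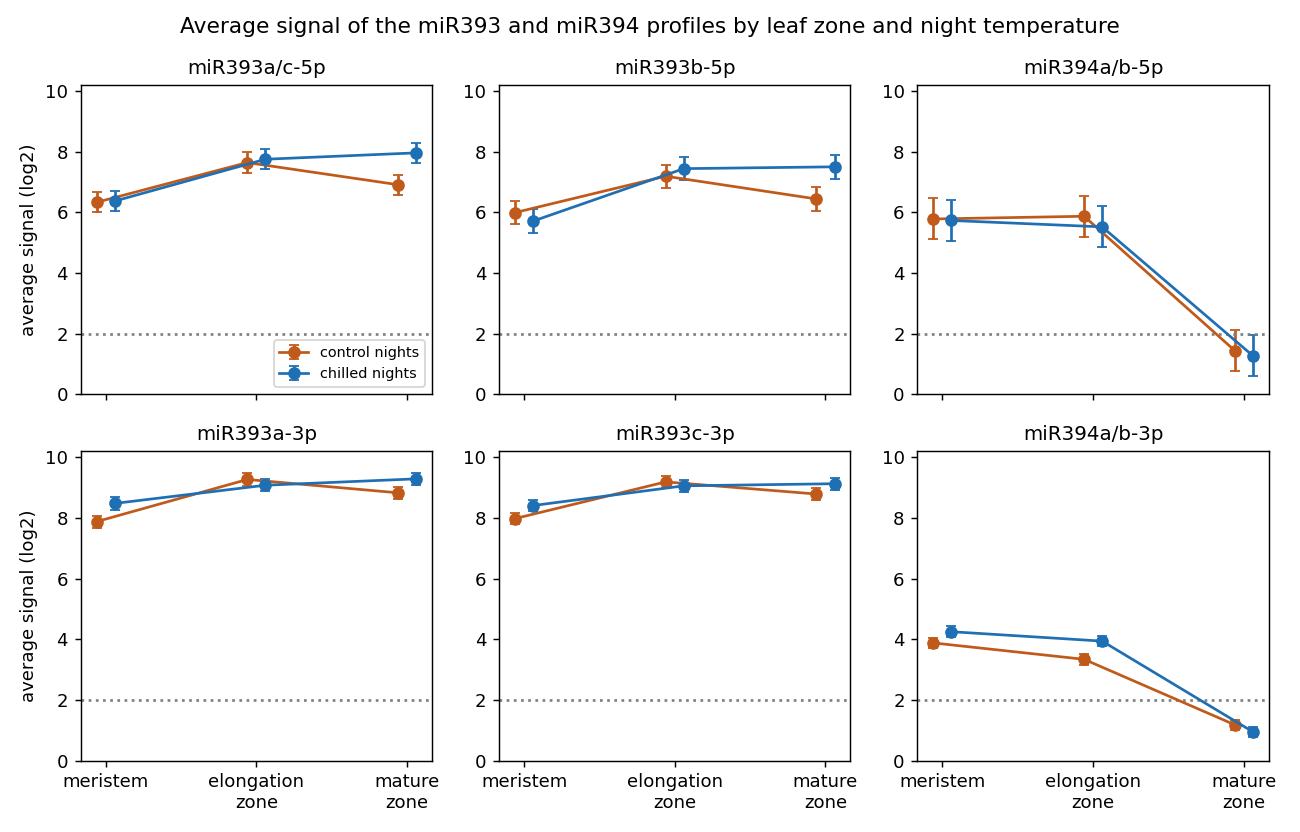
Average log2 signal (vertical axis) of the 6 distinct miR393 and miR394 profiles in the meristem, elongation zone and mature zone (horizontal axis), with control nights in orange and chilled nights in blue. Bars are 1 moderated SE of an average of 3 arrays, and the dotted line is the working limit of 2; both miR394 profiles drop under it in the mature zone, while no miR393 average lies below 5.71.

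Between meristem and elongation zone neither miR394 arm passed with limma. The miR394a/b-5p averages differed by 0.09 in control leaves, with a 95% interval from -1.96 to 2.14, and by -0.21 in chilled leaves, with an interval from -2.26 to 1.84. These intervals are wide, because miR394a/b-5p had a within-group SD of 1.17, the 8th largest of the 147 profiles, whose median was 0.334. For miR394a/b-3p, with an SD of 0.302, the difference was -0.54 in control leaves (adjusted p = 0.0883) and -0.31 in chilled leaves (adjusted p = 0.334). With the median over distinct profiles subtracted, miR394a/b-3p passed as lower in the chilled elongation zone than in the chilled meristem (-0.86).

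The fall in the mature zone was part of a wider pattern. Of all 228 rows, 42.1% were lower in the mature than in the elongation zone of control leaves, and 54.8% in chilled leaves; all 4 miR394 rows were among them in both. Against the meristem the share was 39% in control and 44.7% in chilled leaves, again with all 4 miR394 rows. The median difference over the 147 profiles was -0.59 from elongation to mature zone in control leaves and -0.86 in chilled leaves, so miR394a/b-5p fell further than the median profile. A scaling that subtracts each group's median over the rows, which was 3.67 lower in the chilled mature than in the chilled elongation zone, changed this call in chilled leaves. The 5p difference was then -0.58 and did not pass (adjusted p = 0.590). The 3p difference turned to 0.68 and passed as higher in the mature zone (adjusted p = 0.0181). The same scaling ended the call of both arms against the chilled meristem (-0.78, adjusted p = 0.451, and 0.38, adjusted p = 0.152). The median of the row differences from chilled elongation to chilled mature zone was -0.81, so the 3.67 was not the change of a typical row. With quantile normalization both arms stayed past the threshold as lower than in the elongation zone, in both treatments. Subtracting the median over distinct profiles, added after seeing the data, ended the call of miR394a/b-3p in control leaves (-0.40, adjusted p = 0.173) and of miR394a/b-5p in chilled leaves (-2.02, adjusted p = 0.0685).

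miR393 had its lowest averages in the meristem. The guide profile of the rows zma-miR393a-5p and zma-miR393c-5p (miR393a/c-5p) had a log2 signal of 6.33, 7.64 and 6.91 in the control meristem, elongation zone and mature zone, and of 6.37, 7.75 and 7.96 in the chilled zones. The miR393b-5p profile, from another precursor gene, had 5.99, 7.19 and 6.44 in control leaves and 5.71, 7.44 and 7.50 in chilled leaves. In both 5p profiles the 2 meristem averages lay under the other 4. On the opposite strand, zma-miR393a-3p had 7.88, 9.27 and 8.83 in control and 8.48, 9.08 and 9.29 in chilled leaves. The miR393c-3p averages were 7.98, 9.19 and 8.79 in control and 8.41, 9.06 and 9.13 in chilled leaves, also lowest in the meristem.

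From meristem to elongation zone of control leaves 3 of the 4 miR393 profiles rose, which are 4 of the 9 rows studied; 35.1% of all 228 rows were higher in this comparison. The miR393a-3p level rose by 1.39 (SE 0.285, adjusted p = 0.00164), a 2.62-fold higher signal, and miR393c-3p by 1.21 (SE 0.275, adjusted p = 0.00341). The guide profile miR393a/c-5p rose by 1.31 (SE 0.473, adjusted p = 0.0328). The fourth, miR393b-5p, differed by 1.20 (SE 0.545) and did not pass (adjusted p = 0.0883). The median over all 147 profiles was 0.05 in this comparison, and it was 1.26 over the 4 miR393 profiles. With quantile normalization the 3p differences shrank to 0.49 and 0.20 and did not pass, while miR393a/c-5p rose by 1.96 (adjusted p = 0.00585). The call of miR393a/c-5p was lost with the recovered SD enlarged by 25% (adjusted p = 0.0952) and with the median over distinct profiles subtracted (adjusted p = 0.0529).

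In the same step of chilled leaves both guide profiles rose: miR393a/c-5p by 1.38 (SE 0.473, adjusted p = 0.0230) and miR393b-5p by 1.73 (SE 0.545, adjusted p = 0.0149), against 36.8% of all rows that were higher. The passenger strands did not pass: miR393a-3p differed by 0.60 (adjusted p = 0.0881) and miR393c-3p by 0.65 (adjusted p = 0.0597). This is no shown difference between treatments, since the change of the step with chilling did not pass for any of them (adjusted p from 0.591 to 0.989). With quantile normalization the difference of this step was -0.69 for miR393a-3p (adjusted p = 0.0531) and -0.80 for miR393c-3p (adjusted p = 0.0279). Neither guide profile passed with the enlarged SD (adjusted p = 0.0714 and 0.0518) or with the median over distinct profiles subtracted (adjusted p = 0.156 and 0.0796).

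Between elongation and mature zone none of the 4 miR393 profiles passed with limma in either treatment, and none had an unadjusted p under 0.05. In control leaves the 4 differences lay between -0.75 and -0.40, beside a median of -0.59 over all profiles, and 7.46% of all rows were higher. In chilled leaves they lay between 0.06 and 0.21, beside a median of -0.86, and 10.1% of all rows were higher. These differences depend on the scaling. With quantile normalization and with median subtraction miR393a-3p and miR393c-3p were past the threshold as higher in the mature zone of control leaves, by 0.85 to 1.26. In chilled leaves all 4 profiles passed as higher with row-median subtraction (3.73 to 3.88), and with quantile normalization miR393a-3p (1.21, adjusted p = 0.00328) and miR393c-3p (1.26, adjusted p = 0.00178) did. With the median over distinct profiles subtracted, all 4 also passed as higher in chilled leaves. In control leaves miR393a-3p (1.32) and miR393c-3p (1.36) did so.

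Comparing the mature zone with the meristem, the passenger strands rose in control leaves and all 4 miR393 profiles rose in chilled leaves. In control leaves miR393a-3p rose by 0.95 (SE 0.285, adjusted p = 0.0110) and miR393c-3p by 0.81 (adjusted p = 0.0214, and 0.0665 with the enlarged SD), against 19.3% of all rows. The guide profiles differed by 0.58 for miR393a/c-5p (adjusted p = 0.274) and 0.45 for miR393b-5p (adjusted p = 0.459). Both guide profiles passed as higher with quantile normalization (2.44 and 2.27), with row-median subtraction (2.00 and 1.87) and with the median over distinct profiles subtracted (2.23 and 2.10). In chilled leaves miR393b-5p rose by 1.79 (SE 0.545, adjusted p = 0.00947), a 3.46-fold higher signal, and miR393a/c-5p by 1.59 (SE 0.473, adjusted p = 0.00820). Their passenger counterparts rose by 0.81 for miR393a-3p (adjusted p = 0.0196) and 0.72 for miR393c-3p (adjusted p = 0.0280). In the chilled comparison 32.9% of all rows were higher. The median over all 147 profiles was -0.35 in control and -0.39 in chilled leaves, against 0.69 and 1.20 over the miR393 profiles. In chilled leaves the calls of both passenger strands were lost with quantile normalization (adjusted p = 0.108 and 0.140) and with the enlarged SD (adjusted p = 0.0590 and 0.0755), and that of miR393c-3p with a trended robust prior (adjusted p = 0.0552). A rule of an unadjusted p under 0.05 with a 2-fold minimum was missed by both passenger strands in both treatments, with differences of 0.72 to 0.95.

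**Figure D2:**
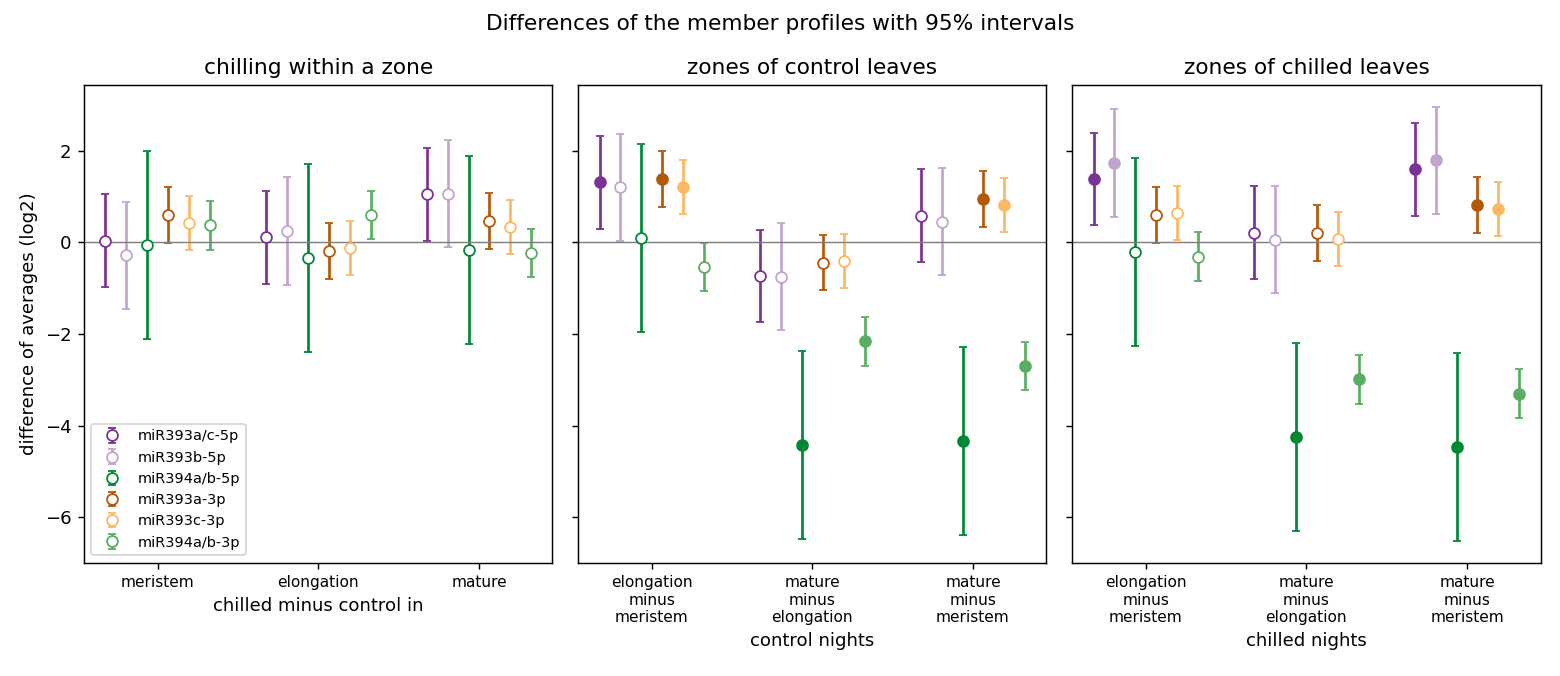
Differences of average log2 signal (vertical axis) with 95% intervals for the 6 member profiles, for chilled minus control leaves within each zone (left), and between zones of control leaves (middle) and of chilled leaves (right). Filled points passed an adjusted p of 0.05; the miR394 differences of -4.46 to -2.16 for the mature zone are filled, as are 11 of the 16 miR393 points that compare a later zone with the meristem, and no point of the chilling panel is.

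For miR394a/b-5p the order was control elongation zone, control meristem, chilled meristem, chilled elongation zone, control mature zone and chilled mature zone. The only neighbours in this order that differed were the chilled elongation zone at 5.52 and the control mature zone at 1.44 (adjusted p = 0.00321). The order for miR394a/b-3p began with the chilled meristem at 4.25, and again a single neighbouring pair differed, the control elongation zone at 3.34 and the control mature zone at 1.18. For the 4 miR393 profiles no neighbouring pair passed, with adjusted p-values from 0.228 to 0.963. In each of them the meristem groups stood at the bottom of the order and the chilled mature or control elongation group at the top. Neighbours in a sorted order differ least by construction, so these missed thresholds do not show that the groups are alike.

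Chilled nights were compared with control nights within each zone, to show whether these regulators respond to cold in the leaf. No miR393 or miR394 profile passed in any zone with limma. In the meristem, where 8.33% of all rows were called and 14.9% had an unadjusted p under 0.05, no member had one. The largest difference there was that of miR393a-3p, 7.88 in control and 8.48 in chilled leaves (0.60, 95% interval from -0.01 to 1.21, adjusted p = 0.326). The guide profiles differed by 0.04 for miR393a/c-5p and -0.28 for miR393b-5p. Quantile normalization brought miR393a-3p (1.18, adjusted p = 0.0206) and miR393c-3p (1.01, adjusted p = 0.0339) past the threshold as higher in the chilled meristem.

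In the elongation zone 0.877% of all rows were called, and 15.4% had an unadjusted p under 0.05, against 1 of the 6 member profiles. This was miR394a/b-3p (2 rows), at 3.34 in control and 3.94 in chilled leaves (0.60, SE 0.246, unadjusted p = 0.0288, adjusted p = 0.212). Its guide arm, miR394a/b-5p, differed by -0.35 with an interval from -2.40 to 1.70. The 4 miR393 profiles differed by -0.19 to 0.25.

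In the mature zone 14% of all rows were called and 20.2% had an unadjusted p under 0.05, again against 1 of the 6 member profiles. This guide profile, miR393a/c-5p (2 rows), stood at 6.91 in control and 7.96 in chilled leaves, a 2.07-fold higher signal (1.05, 95% interval from 0.04 to 2.06, unadjusted p = 0.0435, adjusted p = 0.220). The other guide, miR393b-5p, stood at 6.44 and 7.50 (1.06, interval from -0.11 to 2.23, adjusted p = 0.316). Counted from the largest rise, miR393b-5p and miR393a/c-5p held places 5 and 6 of the 147 profiles in this comparison. Their passenger strands differed by 0.46 for miR393a-3p and 0.34 for miR393c-3p. Both miR394 arms were near background in both treatments, with differences of -0.17 and -0.23. A missed threshold does not show that the groups are alike. Subtracting the row median, which was 2.40 lower in the chilled than in the control mature zone, made all 6 profiles pass as higher in the chilled mature zone (2.17 to 3.46), and quantile normalization none. The median of the row differences themselves was 0 in this comparison, so the 2.40 was not the change of a typical row.

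The difference of the chilling effect between zones did not pass for any member. By the moderated F test over the zones the adjusted p was 0.395 for miR394a/b-3p, 0.455 for miR393a-3p and 0.557 to 0.980 for the other profiles, while 7.02% of all rows passed. No member had an unadjusted p under 0.05 in that test. The effect on miR393b-5p was larger in the mature zone than in the meristem by 1.34, with an interval from -0.31 to 2.99 (adjusted p = 0.348), and that on miR393a/c-5p by 1.01, with an interval from -0.43 to 2.45 (adjusted p = 0.432). No size of such a difference is given for miR394 in the mature zone, where its averages are near background in both treatments.

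Most of the variation between the 6 averages of each member lay between zones. Of the sum of squares between groups, zones took 99.7% for miR394a/b-5p and 97.5% for miR394a/b-3p. For the miR393 profiles zones took 78.5% to 86.1%, chilling 5.94% to 9.25%, and the part in which chilling acted unequally across zones 7.91% to 15.3%. The medians over the 147 profiles were 89.5% for zones, 2.53% for chilling and 5.74% for the unequal part. These shares describe the averages, and the noise of the averages is part of them.

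**Figure D3:**
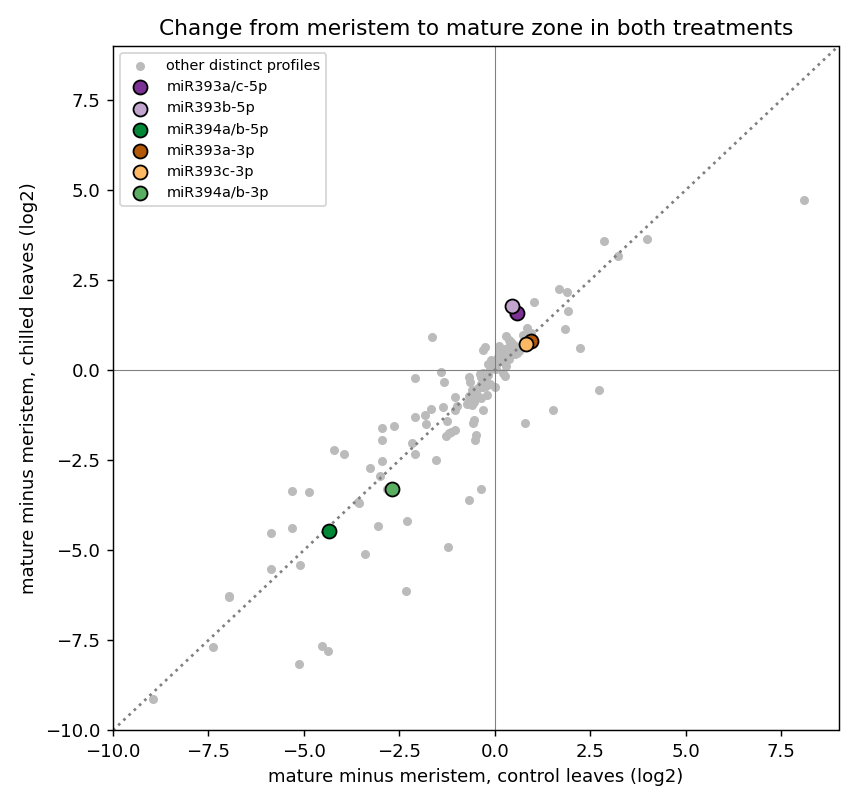
Difference of average log2 signal, mature zone minus meristem, of control leaves (horizontal axis) and of chilled leaves (vertical axis) for the 147 distinct profiles, with the members coloured and equal change on the dotted line. The 4 miR393 profiles lie above 0 on both axes and the 2 miR394 profiles below; miR393a/c-5p and miR393b-5p lie above the dotted line (1.59 and 1.79 in chilled against 0.58 and 0.45 in control leaves).

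Members of a family that differ in precursor gene had a similar course over the 6 groups. After centring each profile on its own mean, miR393a-3p and miR393c-3p lay at a root mean square distance of 0.0783 log2 units, and miR393a/c-5p and miR393b-5p at 0.113. Whether the rows of one family measure separate genes or share signal from near-identical miRNAs was not tested. The arms of miR394 both had their lowest averages in the mature zone, near background (Pearson's r = 0.973 over the 6 groups, as a description). A difference in course between arms was not tested, because the table holds no single arrays.

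The profiles most like each member were sought among the other 141 distinct profiles, by the root mean square distance between the 6 averages after each profile was centred on its own mean. For both miR393 3p profiles, and among the nearest 3 of both 5p profiles, these were 5p profiles of miR156, a family that represses SPL transcription factors. The miR393c-3p profile was nearest to miR156j-5p, at a distance of 0.170 log2 units (Pearson's r = 0.929 over 6 groups, as a description), and so was miR393a-3p, at 0.219. The guide profile miR393a/c-5p was nearest to miR399a/c/h-3p, at 0.295, as was miR393b-5p, at 0.361. That miR399 profile, of a family that represses the phosphate regulator PHO2, ran from 5.13 in the control meristem to 7.20 in the chilled mature zone.

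For the miR394 profiles, whose averages span a wider range (3.30 and 4.60 log2 units, against 1.21 to 1.79 for miR393), the distances are not comparable with those of miR393. Nearest to miR394a/b-3p was the miR166j/k/n-3p profile, at 0.378, of a family that represses HD-ZIP III transcription factors. It was followed by miR171a-3p, at 0.388, and miR171g-3p, at 0.467, of a family that represses GRAS factors. Nearest to miR394a/b-5p were miR166a-5p at 0.659, miR160d-3p at 0.738 and miR171d/e-5p at 0.747.

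**Figure D4:**
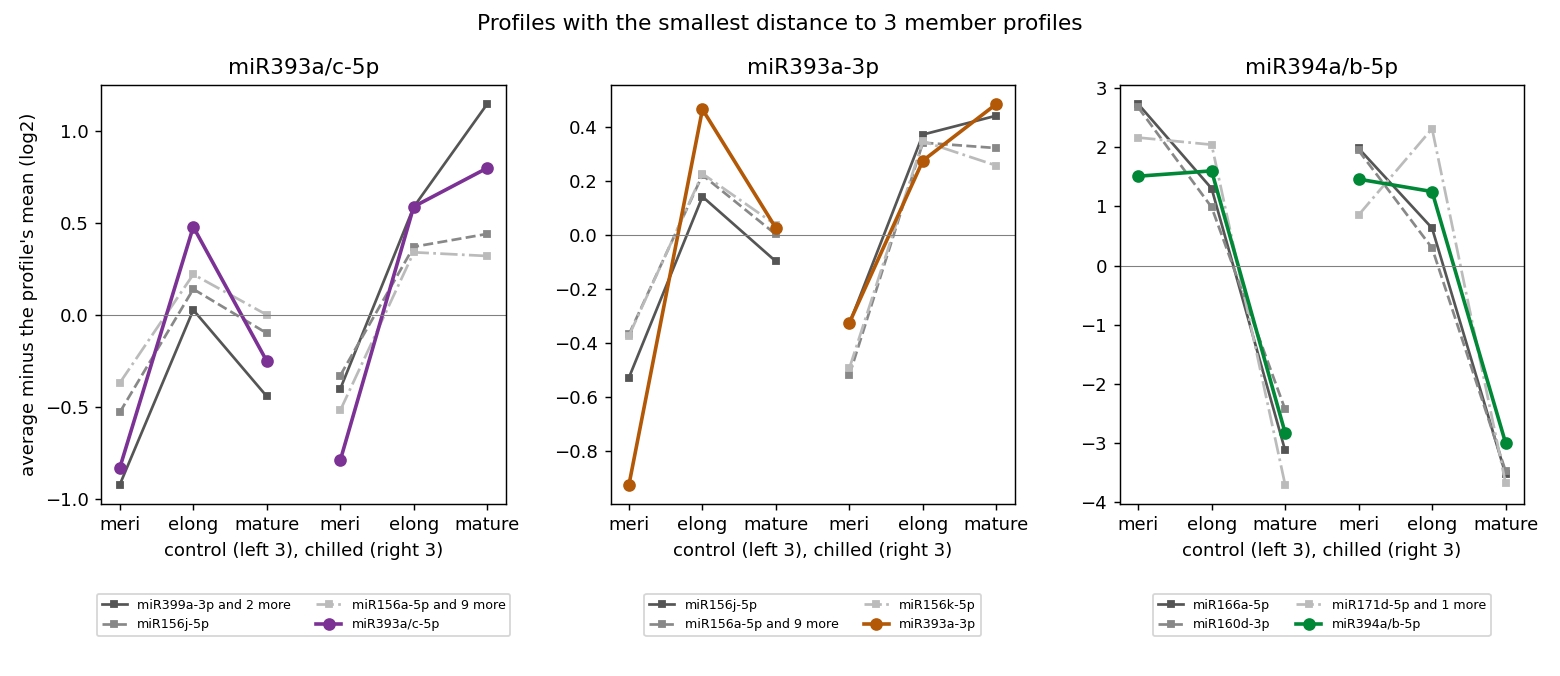
Average log2 signal minus the profile's own mean (vertical axis) over the 6 groups (horizontal axis) for miR393a/c-5p, miR393a-3p and miR394a/b-5p, each with its 3 nearest profiles in grey; a legend entry that names further rows stands for rows with identical values. The nearest distances were 0.295, 0.219 and 0.659, and the vertical scales of the panels differ.

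Loss of signal in the mature zone was shared with other families. Of the 147 profiles, 26 (17.7%) had 2 or more in all 4 averages of the growing zones and under 2 in both mature averages, and both miR394 profiles were among them. These 26 came from 14 families. They included 6 miR166 5p profiles, such as miR166n-5p, which stood at 10.66 in the meristem and 1.72 in the mature zone of control leaves. In 28 profiles (19.0%), from 11 families, both meristem averages were the lowest of the 6, and all 4 miR393 profiles were among them. Both groupings were set up after the members' values were seen, and they describe the averages without a test.

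The other auxin families were described beside miR393, since its targets are auxin receptors. The list held miR160 and miR167, which repress auxin response factors, miR164, which represses NAC factors, and miR390, which triggers the small RNAs of TAS3 against auxin response factors, with 39 rows and 23 distinct profiles. From meristem to elongation zone 11 of the 23 profiles (24 rows) rose in control leaves and 3 fell, where 36 of all 147 profiles rose and 17 fell. In chilled leaves 12 of 23 (25 rows) rose and 3 fell, where 44 and 22 of all 147 did. Of 8 miR167 profiles 5 rose in this step in control leaves and 7 in chilled leaves, and of 8 miR164 profiles 5 and 4 rose, with none lower. The list takes 5p and 3p arms together, so these counts are not of guide arms alone. Some 3p profiles stayed under the limit of 2 in both zones. Examples are miR164b-3p (1.07 to 1.78 in control leaves) and miR167h/i-3p (1.22 to 1.90 in chilled leaves). Of 5 miR160 profiles, all 3p arms, 3 fell in control leaves and 2 in chilled leaves, while 1 rose in each. Neither of the 2 miR390 profiles rose.

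From elongation to mature zone of control leaves 12 of the 23 profiles (15 rows) fell and 3 rose, where 68 of all 147 profiles fell and 11 rose, and the median was -0.59 over both. In chilled leaves 18 of 23 (26 rows) fell and none rose, where 86 of 147 fell and 19 rose. All 5 miR160 and both miR390 profiles were among those that fell in both treatments. The counts of the list lay near those of the whole table in control leaves, and its difference from miR393 was not tested. Under chilling none of the 39 rows passed with limma in the meristem, where 8.33% of all rows did. In the elongation zone 1 of the 39 rose, where 0.439% of all rows did, and in the mature zone 4 fell, where 9.65% of all rows did. The medians over the 23 profiles were -0.13, 0.14 and -0.08 in these zones, beside -0.01, 0.04 and -0.01 over all 147 profiles and 0.23, -0.01 and 0.75 over the miR393 profiles.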

How the data were processed

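MicroRNA signal was measured on 18 arrays in 6 groups of 3. The authors deposited, for each row, 6 bi-weight average signals in log2 units, together with p-values of an ANOVA over all conditions, raw and FDR-adjusted, per the file headers. Affymetrix Expression Console is named in the submitters' processing notes; how background, scaling between arrays and probes were handled is not given in the sources used here. Per the values, the FDR p-values match an adjustment over about 36210 probe sets, far more than the 228 rows. There is no read depth on arrays; the number of arrays limits the precision.

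The within-group variance of each row was recovered by turning the ANOVA p-value back into F (5 and 12 degrees of freedom) and dividing the mean square between the averages by it. It was moderated with squeezeVar of limma 3.58.1 in R 4.3.3 (prior degrees of freedom 1.945), and two-sided contrasts were given Benjamini-Hochberg adjusted p-values over the 228 rows. This treats the bi-weight averages as means and assumes equal spread in all groups, and selection of rows on the same ANOVA means that the false discovery rate is not strictly held. The recovery was run on simulated normal arrays, with plain means and the same SD in all groups. That run could not test the treatment of bi-weight averages as means, nor the assumption of equal spread. Each p-value sets a difference of averages against the recovered spread between arrays. Members are all rows named miR393 or miR394, and likeness followed a fixed rule (the 3 nearest profiles). The members and lists were chosen with earlier results of these data known. Alternatives changed the moderation, the SD, the scaling, the adjustment, the call rule and the handling of low averages. No miRNA sequences and no coordinates were used here.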

Additional observations from a re-analysis of the deposited data

How the results depend on the processing

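Of the 54 differences (6 profiles in 9 contrasts), 21 kept their call under all 11 alternatives. A difference that missed the threshold both before and after counts as kept, whatever its sign or size. All 54 were kept without moderation, with 1 row per profile and with adjustment over all contrasts. The same held with averages under log2 2 set to 2 and with rows of low level left out. With a trended robust prior 53 were kept, with the SD enlarged by 25% 48, and with an unadjusted p and a 2-fold minimum 48. Scaling moved more: 41 were kept with quantile normalization, 36 with subtraction of the row median and 40 with subtraction of the median over distinct profiles, an alternative chosen after seeing the data. Among those kept, 3, 3 and 6 differences changed sign under these scalings without passing before or after. The scalings rest on a preselected table, and which of them suits these arrays was not tested.

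Quantile normalization gave 2 profiles past the threshold instead of 0 for chilling in the meristem, 1 instead of 3 for elongation against meristem in control leaves, and 4 instead of 2 for mature against elongation in control and in chilled leaves. It turned miR393a-3p (1.13) and miR393c-3p (1.26) in control mature against elongation, and miR393c-3p (-0.80) in chilled elongation against meristem. Row-median subtraction gave 6 instead of 0 for chilling in the mature zone, 4 instead of 2 and 5 instead of 2 for mature against elongation in control and chilled leaves, and 5 instead of 0 for the chilling effect between zones. Under it, miR394a/b-3p turned in the mature zone for chilling (2.17), chilled mature against elongation (0.68) and chilled mature against meristem (0.38), miR394a/b-5p for chilling in the mature zone (2.23), and miR393a-3p (0.85) and miR393c-3p (0.88) in control mature against elongation. Profile-median subtraction turned the same pair (1.32 and 1.36), and ended the miR394a/b-3p fall there (-0.40, adjusted p = 0.173) and the chilled miR394a/b-5p fall (-2.02, adjusted p = 0.0685). It gave 1 instead of 2 for chilled elongation against meristem and 5 instead of 2 for chilled mature against elongation. The 1 was miR394a/b-3p, as lower in the elongation zone (-0.86). The 5 were the 4 miR393 profiles, as higher in the mature zone, and miR394a/b-3p, as lower. The enlarged SD gave 0 instead of 2 for chilled elongation against meristem. The unadjusted rule gave 1 instead of 0 for chilling in the mature zone and 2 instead of 4 for control mature against meristem. Its 2-fold minimum also ended the calls of miR393a-3p (0.81) and miR393c-3p (0.72) in chilled mature against meristem. The cause of these changes was not tested.

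No paired analysis was possible because the table holds group averages and no single arrays, and leaving out single replicates could not be run for the same reason.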
